A study of Mus musculus with 36 samples.

Results

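The insulin-like growth factor binding proteins (IGFBPs) are a family of secreted proteins, and their 7 mouse genes, Igfbp1 to Igfbp7, are described here in kidneys that lack Pkd1 or Pkd2 in the collecting duct. The genes were chosen by symbol, and each was represented by its RefSeq transcript with the highest mean count. They are 7 of the 20458 genes that could be named in the RNA-seq table, and 6 of the 7 had enough reads to be tested. Kidneys came from newborn mice of 1, 3 or 7 days of age (P1, P3 and P7), with 3 libraries from 3 mice in each of 12 groups, 36 libraries in all. All mice had a C57BL/6 background and carried both floxed copies of one gene. Wild type (WT) mice were Pkd1f/f or Pkd2f/f without cre, and knockout (KO) mice were Pkd1f/f:HoxB7-cre or Pkd2f/f:HoxB7-cre. The HoxB7 promoter drives cre in the collecting duct and its precursor, whereas the libraries were made from whole kidney, so that every value is a mean over all cells of the organ. The deletion and the presence of cre cannot be told apart in these groups.

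IGFBPs bind the insulin-like growth factors Igf1 and Igf2 tightly outside the cell. They carry them in the blood, keep them from their receptor Igf1r or release them near it when proteases cut the binding protein, and several also act on cells without the growth factor. Igfbp3 is the main carrier in blood, where it joins the growth factor and the acid-labile subunit Igfals. Igfbp5 binds the same subunit and also extracellular matrix, Igfbp2 and Igfbp4 form smaller complexes, Igfbp6 prefers Igf2, Igfbp1 is made mostly by the liver under the control of insulin, and Igfbp7 binds the growth factors only weakly. In the kidney the growth factors and their binding proteins take part in postnatal growth and in compensatory enlargement.

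The family members lie in several places of the mm10 genome, and 4 of them form neighbouring pairs. Igfbp2 (chromosome 1, 72824480 to 72852474, plus strand) and Igfbp5 (chromosome 1, 72858065 to 72874865, minus strand) face each other with 5590 bases between their ends. Igfbp1 (chromosome 11, 7197787 to 7202546, plus strand) and Igfbp3 (chromosome 11, 7206086 to 7215498, minus strand) face each other with 3539 bases between them. Igfbp4 lies apart on chromosome 11 (99040005 to 99052655), Igfbp6 on chromosome 15 (102144186 to 102149512) and Igfbp7 on chromosome 5 (77349240 to 77408045).

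Igfbp2 and Igfbp3 are the members that rose in KO kidneys and passed the test in at least 1 model, whereas the neighbour in each pair did not pass, so the promoters of these 2 genes are shown. The windows hold 250 bases before and 50 bases from a start site that RefSeq gives the gene in GRCm38.p6, the assembly of mm10. The gene positions above span every RefSeq transcript of a gene, predicted ones included, and the start sites used for Igfbp3 (7213923) and Igfbp4 (99041244) lie inside them. They cover chr1:72824230-72824529 on the plus strand for Igfbp2 and chr11:7213874-7214173 on the minus strand for Igfbp3. Capitals mark matches to the motifs searched.
Igfbp2: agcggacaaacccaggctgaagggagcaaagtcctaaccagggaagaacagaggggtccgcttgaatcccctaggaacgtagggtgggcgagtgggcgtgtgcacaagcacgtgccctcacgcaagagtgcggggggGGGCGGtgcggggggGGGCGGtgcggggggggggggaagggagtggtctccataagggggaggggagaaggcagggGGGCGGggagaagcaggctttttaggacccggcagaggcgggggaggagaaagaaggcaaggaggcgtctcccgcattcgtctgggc
Igfbp3: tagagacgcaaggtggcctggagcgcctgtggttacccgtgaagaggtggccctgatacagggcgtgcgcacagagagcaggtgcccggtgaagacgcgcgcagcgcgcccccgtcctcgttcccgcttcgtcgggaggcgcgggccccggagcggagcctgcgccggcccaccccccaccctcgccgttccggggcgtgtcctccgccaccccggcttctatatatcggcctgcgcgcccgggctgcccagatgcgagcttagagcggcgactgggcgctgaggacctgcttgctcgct
Both strands were searched for 5 motifs. A GC box, GGGCGG, was found 3 times in the Igfbp2 window, at positions -113, -98 and -37 from the start site, and at least once in 35.7% of all 32851 promoter windows of the same length. The Igfbp3 window held a match to none of the motifs as spelled here. The others were a TATA box, TATAAA, found in 13.6% of all windows, a CCAAT box, CCAAT, in 37.4%, an AP-1 site, TGANTCA, in 7.81%, and a TEAD site, GGAATG, in 14.7%. RefSeq gives Igfbp2 a further start site, and the window there (chr1:72825137-72825436) held an AP-1 site at position -39. Of the neighbours, the Igfbp5 window held a TEAD site at position -233 and the Igfbp1 window held no match. The Igfbp4 window held a TATA box at position -28. The Igfbp6 window held a TATA box, read on the opposite strand at position -148, and 2 CCAAT boxes. The Igfbp7 window held GC boxes at positions -110, -96, -74 and -44, so repeated GC boxes are not particular to Igfbp2. Variants of these spellings were not searched, so the letters tatatat in the Igfbp3 window did not count as a TATA box. These matches describe letters only.

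Each library held between 7179152 and 15850818 reads counted on transcripts. Values are CPM, read counts set relative to the size of the library, after scaling with edgeR's TMM factors, and levels of different genes are compared only as CPM per kilobase of transcript. The deleted gene gave little check of the labels. The log2 fold changes of Pkd1 in Pkd1 KO were -0.20, -0.08 and 0.11 at P1, P3 and P7, and those of Pkd2 in Pkd2 KO were -0.22, 0.03 and -0.28, of which the last alone passed edgeR's quasi-likelihood test (adjusted p = 0.0132). Markers of the tubules, glomerulus and stroma of the kidney were found in all groups, although the rows of Avpr2, Scnn1b, Slc12a3, Ptpro, Pecam1, Tek and Pdgfrb, and that of the liver marker Ahsg, were at 0 in every library. In the Pkd2 model at P3, a WT library (replicate 2) held 3823 CPM of adrenal markers and a KO library (replicate 3) held 2480 CPM of liver markers, against medians of 12.5 and 136 CPM over all libraries. Of these liver markers Alb alone made 2194 CPM. Adrenal markers also reached 1249 CPM in Pkd1 KO replicate 1 and 1087 CPM in Pkd2 KO replicate 3 at P7. Counts of Y-linked genes were present in 0 of 3 WT and 3 of 3 KO libraries of the Pkd1 model at P7 and in 2 of 3 WT and 3 of 3 KO libraries of the Pkd2 model at P7. In the Pkd1 model only the WT group at P1 held libraries with and without these counts. A covariate for them in that model therefore rests on WT replicate 2 at P1, the library with the fewest reads. 

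Averaged over the 36 libraries, Igfbp3 (295 CPM per kilobase), Igfbp4 (237), Igfbp5 (212) and Igfbp2 (136) were the abundant members. Igfbp6 (13.2) and Igfbp1 (6.12) were lower. Igfbp2 varied most among the abundant 4, from 25.8 to 510 CPM per kilobase between libraries, and Igfbp4 least, from 191 to 353. The row of Igfbp7 held 56 reads over the 36 libraries, with at most 5 in a library, and its other row held 0. Rows of genes with several transcripts were at 0 in 57.5% of cases, against 15.3% for genes with a single transcript. The level of Igfbp7 is therefore not described by this table, and it was not tested.

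**Figure D1:**
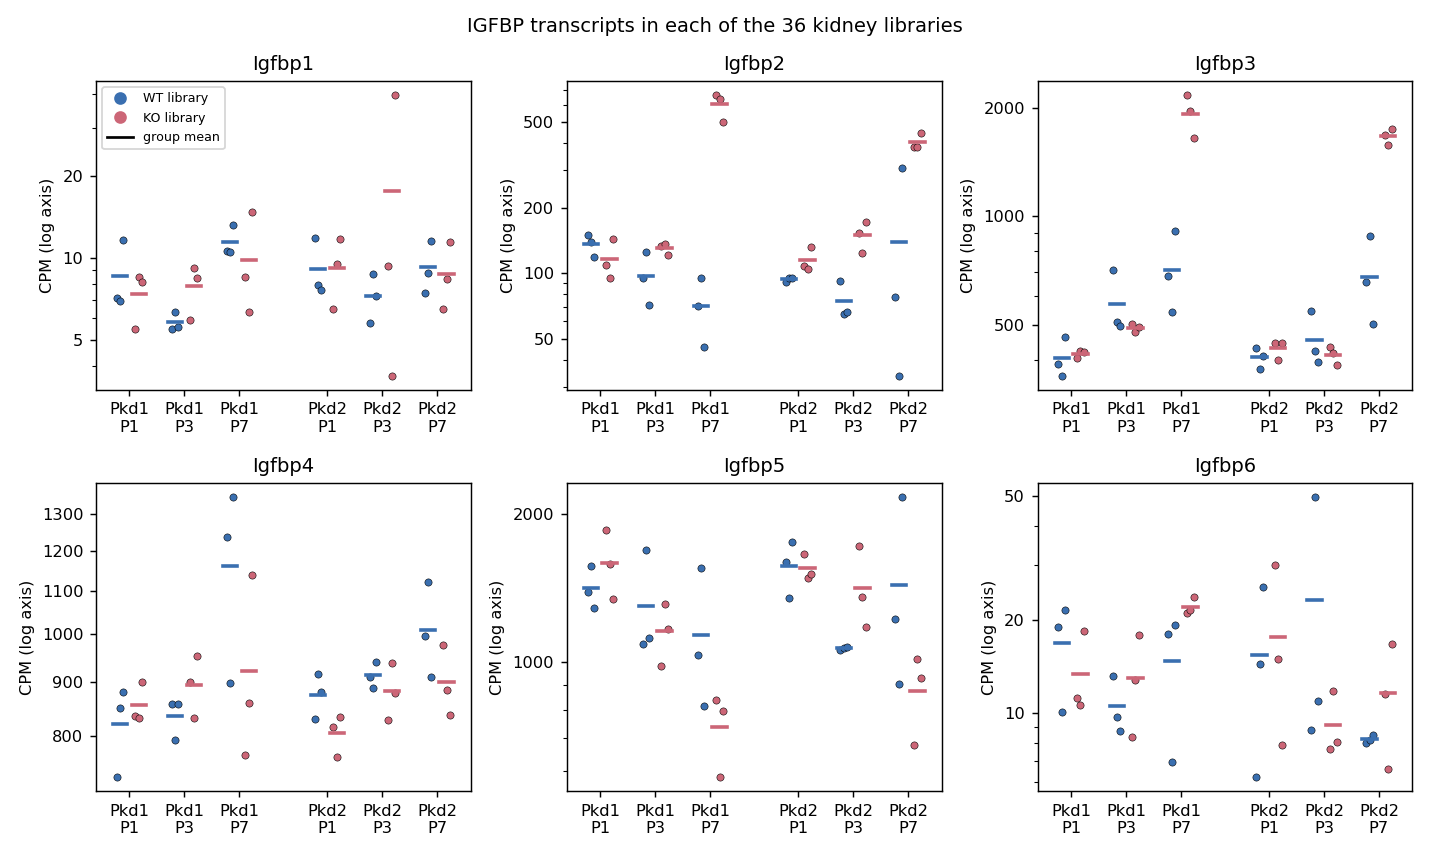
CPM of 6 IGFBP transcripts (log axes) in each of the 36 libraries, by model, day and genotype. Points are libraries and bars are group means. At P7 the KO points of Igfbp2 lie between 500 and 666 CPM in the Pkd1 model and between 382 and 445 in the Pkd2 model, and those of Igfbp3 between 1649 and 2173 and between 1581 and 1752.

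The first question was whether the level of each binding protein differs between KO and WT kidneys at each day. In both models Igfbp3 was higher in KO kidneys at P7, by 2.71-fold in the Pkd1 model and 2.46-fold in the Pkd2 model. Igfbp2 was 8.5-fold higher in Pkd1 KO kidneys at P7, and the difference in Pkd2 KO kidneys did not pass the test. In the Pkd1 model at P7 Y-linked counts coincided with genotype, so sex and genotype cannot be told apart there. No member passed at P1 or P3. At P7 edgeR's test called 2 of 6 members in the Pkd1 model, where 13.5% of all 12527 transcripts were called, and 1 of 6 in the Pkd2 model, where 14.1% of 12633 were. At P1 and P3 it called 0 members in either model, and it called 0% of all transcripts at P1 in both models, 0.00798% at P3 in the Pkd1 model and 0% at P3 in the Pkd2 model. Members with an unadjusted p under 0.05 at P1 and P3 numbered 0 and 1 (Pkd1 model) and 1 and 2 (Pkd2 model). Of all transcripts, 160 and 1747 of 12527 met that threshold in the Pkd1 model and 716 and 575 of 12633 in the Pkd2 model. DESeq2 called 0 members at these days except for 1, Igfbp2, in the Pkd2 model at P3. The share of all transcripts that DESeq2 called is not given, here or below.

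Igfbp2, a binding protein abundant in the fetus and newborn, showed the largest log2 fold change of the 6 members tested in the Pkd1 model. Pkd1 WT kidneys at P7 held 71, 95.7 and 45.8 CPM and the KO kidneys 666, 642 and 500 CPM. Every KO kidney stood far above every WT kidney, and the log2 fold change was 3.09 (SE 0.26, adjusted p = 0.00166 in edgeR's quasi-likelihood test). Y-linked counts were present in all these KO and none of these WT kidneys, so sex and genotype cannot be told apart. The Pkd2 WT kidneys at P7 held 77.6, 33.7 and 308 CPM and the KO kidneys 383, 382 and 445 CPM. The KO kidneys were close together and above all WT kidneys, of which replicate 3 was much higher than the other two. The log2 fold change was 1.53 (SE 0.65) and did not pass (adjusted p = 0.163 in edgeR's test). Without WT replicate 3 it was 2.86 and passed (adjusted p = 0.000702). Leaving out any other library of the 6 gave 1.06 to 1.57, which did not pass (adjusted p = 0.204 to 0.373). WT replicate 3 was also the only one of the 6 without counts of Y-linked genes (0.398 CPM summed), and with the presence of such counts as a covariate in the fit of all 18 Pkd2 libraries the value was 1.98 (adjusted p = 0.0243).

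Earlier, the levels of Igfbp2 were closer. At P1 the Pkd1 model held 150, 140 and 119 CPM in WT and 109, 95.1 and 144 CPM in KO, and the Pkd2 model 91, 95.2 and 95.7 CPM in WT and 108, 105 and 132 CPM in KO. At P3 the Pkd1 model held 95.7, 126 and 71.5 CPM in WT and 134, 137 and 121 CPM in KO, and the Pkd2 model 92.4, 64.6 and 66.6 CPM in WT and 153, 124 and 172 CPM in KO. WT and KO overlapped in the Pkd1 model on both days and did not overlap in the Pkd2 model on either. The log2 fold change in the Pkd2 model was 0.29 at P1 (adjusted p = 0.861) and 1.01 at P3 (SE 0.17, adjusted p = 0.913), and neither passed edgeR's test. The value at P3 had an unadjusted p of 0.000708, and DESeq2 gave 1.00 with an adjusted p of 5.69e-05. Leaving out the 2 libraries of that day that hold adrenal or liver markers gave 0.80 (adjusted p = 0.875), a choice made after seeing the data. Ordered by mean, the 12 groups ran from Pkd1 KO at P7 (603 CPM) and Pkd2 KO at P7 (403 CPM), whose ranges did not overlap, to Pkd1 WT at P7 (70.9 CPM), and below the first 2 groups each group overlapped its neighbour in the order.

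Igfbp3, the main carrier of the growth factors in blood, rose in both models at P7. Pkd1 WT kidneys held 681, 541 and 913 CPM and the KO kidneys 2173, 1959 and 1649 CPM. Pkd2 WT kidneys held 657, 881 and 503 CPM and the KO kidneys 1683, 1581 and 1752 CPM. All KO kidneys were above all WT kidneys in both models. The log2 fold change was 1.44 in the Pkd1 model (SE 0.20, adjusted p = 0.00922) and 1.30 in the Pkd2 model (SE 0.18, adjusted p = 0.00424), both in edgeR's test. The Pkd1 value was 1.41 without WT replicate 1 and no longer passed (adjusted p = 0.0512). With Y-linked counts as a covariate it was 1.20 (adjusted p = 0.121), and genotype and Y-linked counts coincide in the P7 kidneys of that model. That covariate rests on WT replicate 2 at P1 there, so the fit cannot decide how much of the value goes with sex. The same covariate gave 1.22 in the Pkd2 model (adjusted p = 9.09e-05). Without the P7 kidneys that hold adrenal markers, 1 in each model, Igfbp3 was 1.34 (adjusted p = 0.0336) and 1.26 (adjusted p = 0.0186).

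At the earlier days Igfbp3 did not separate the genotypes. At P1 it ran from 361 to 463 CPM over the WT and KO kidneys of the Pkd1 model and from 377 to 446 CPM over those of the Pkd2 model. At P3 it ran from 476 to 708 CPM and from 386 to 546 CPM. WT and KO overlapped in all 4 comparisons. In the order of the 12 groups, Pkd1 KO at P7 (1927 CPM) and Pkd2 KO at P7 (1672 CPM) overlapped each other and stood apart from the rest. The other groups, from Pkd1 WT at P7 (712 CPM) to Pkd1 WT at P1 (404 CPM), each overlapped the next.

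**Figure D2:**
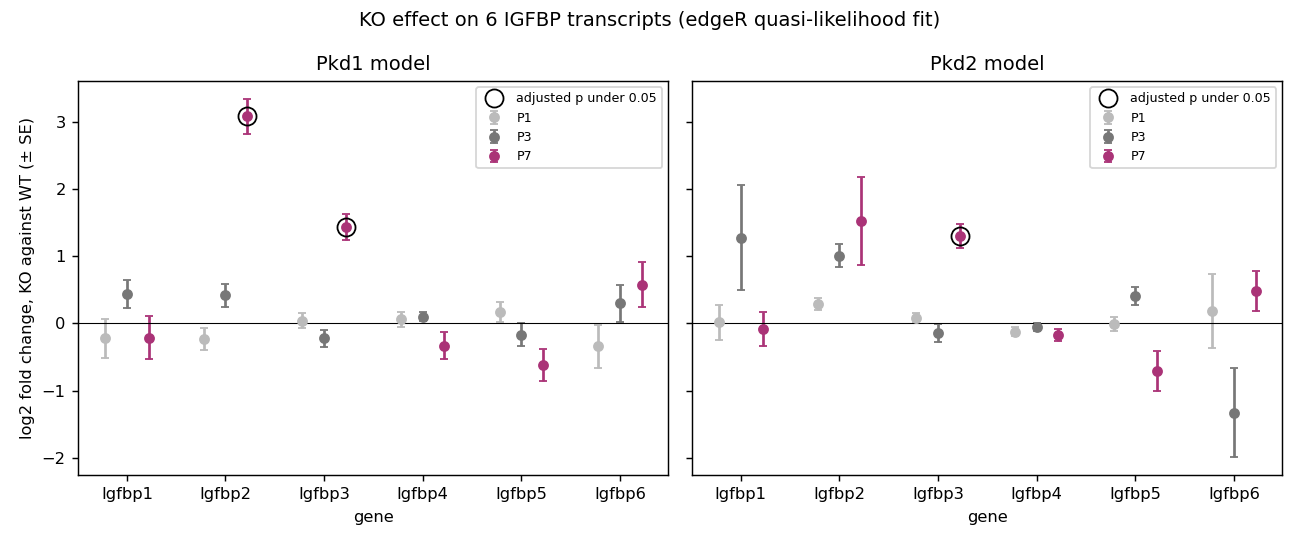
Log2 fold change of KO against WT (± SE, edgeR) of 6 IGFBP transcripts at P1, P3 and P7 in each model, with a ring where the adjusted p is under 0.05. The rings mark Igfbp2 (3.09) and Igfbp3 (1.44) at P7 in the Pkd1 model and Igfbp3 (1.30) at P7 in the Pkd2 model, while Igfbp5 lies below 0 at P7 in both without passing.

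Igfbp5, the matrix-binding member next to Igfbp2, was lower on average in KO kidneys at P7 and did not pass the test. Pkd1 WT kidneys held 1036, 1555 and 816 CPM and the KO kidneys 837, 583 and 797 CPM. Pkd2 WT kidneys held 1225, 903 and 2171 CPM and the KO kidneys 680, 1015 and 930 CPM. The genotypes overlapped in both models. The log2 fold change was -0.62 (SE 0.24, adjusted p = 0.115) in the Pkd1 model and -0.71 (SE 0.30, adjusted p = 0.156) in the Pkd2 model. In the Pkd1 model it passed without WT replicate 3 (-0.81, adjusted p = 0.0281), in DESeq2 (-0.63, adjusted p = 0.0355) and in a fit of all 18 libraries of the model (-0.62, adjusted p = 0.043). It was -0.33 (adjusted p = 0.291) without WT replicate 2 there, and the Pkd2 value was -0.28 (adjusted p = 0.337) without WT replicate 3. At P3 in the Pkd2 model the WT kidneys held 1061, 1071 and 1073 CPM and the KO kidneys 1720, 1356 and 1177 CPM. They did not overlap there, and a log2 fold change of 0.41 missed the threshold (adjusted p = 0.945). The highest group mean was that of Pkd1 KO at P1 (1594 CPM) and the lowest that of Pkd1 KO at P7 (739 CPM).

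Igfbp4, a member cut by the protease Pappa, varied least between libraries, with 731 to 1351 CPM over all libraries. At P7 the WT kidneys of the Pkd1 model held 1236, 899 and 1351 CPM and the KO kidneys 768, 860 and 1139 CPM. The Pkd2 model held 997, 1122 and 911 CPM in WT and 977, 885 and 838 CPM in KO. The genotypes overlapped, and the log2 fold changes of -0.33 (SE 0.20, adjusted p = 0.272) and -0.17 (SE 0.09, adjusted p = 0.287) did not pass. All 12 groups overlapped their neighbours in the order of means, which ran from 1162 CPM in Pkd1 WT at P7 to 805 CPM in Pkd2 KO at P1.

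Igfbp1, the liver-derived member, was low throughout. Over 35 of the libraries it ran from 3.69 to 14.7 CPM, and in Pkd2 KO replicate 3 at P3 it reached 39.7 CPM. That library is the one with 2480 CPM of liver markers, of which Alb made 2194 CPM, and the other libraries held at most 309 CPM. Ttr was 280 CPM there, against 166 and 128 CPM in the other KO kidneys of the group. The rows used for the remaining liver markers were not raised, with Apoa2 at 6.46 CPM against 6.72 and 6.65 CPM, and Serpina1a and Ahsg at 0. Apoa2 (4 rows), Serpina1a (2 rows) and Ahsg (3 rows) have several transcripts. As for Igfbp7, their values therefore do not give their levels and cannot show whether liver RNA was present. The other KO kidneys of that group held 9.32 and 3.69 CPM of Igfbp1 and the WT kidneys 5.76, 8.73 and 7.25 CPM. The log2 fold change of Igfbp1 there was 1.28 (SE 0.78, adjusted p = 0.945) with all libraries and -0.15 without the KO library with liver markers, a change of sign. At P7 the log2 fold changes of Igfbp1 were -0.21 (adjusted p = 0.669) in the Pkd1 model and -0.08 (adjusted p = 0.876) in the Pkd2 model, and its 12 groups all overlapped their neighbours in the order of means.

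Igfbp6, which prefers Igf2, was also low and uneven. Its highest value, 49.7 CPM, was in Pkd2 WT replicate 2 at P3, the library with 3823 CPM of adrenal markers, among them 2191 CPM of Cyp21a1 and 996 CPM of Star. The other WT kidneys of that group held 8.81 and 10.9 CPM and the KO kidneys 7.64, 11.8 and 8.1 CPM. The log2 fold change of Igfbp6 there was -1.33 (SE 0.66, adjusted p = 0.945) with all libraries and -0.10 without that WT library. The P7 kidneys with the next highest adrenal markers held 21 CPM (Pkd1 KO replicate 1) and 16.7 CPM (Pkd2 KO replicate 3) of Igfbp6. At P1 Igfbp6 was higher than that, at 30 CPM in Pkd2 KO replicate 1 and 25.5 CPM in Pkd2 WT replicate 3. Those libraries held the highest adrenal marker sums of their groups, 16.6 and 29.8 CPM, beside a median of 12.5 CPM over all libraries. The Pkd2 WT group at P3 also held the highest sums of stromal (13352 CPM), muscle (150 CPM) and adipose (60.4 CPM) markers of the 12 groups. Pkd1 WT kidneys at P7 held 18, 6.98 and 19.2 CPM and the KO kidneys 21, 21.4 and 23.7 CPM. The KO kidneys were all above the WT kidneys, and their log2 fold change of 0.58 (SE 0.34) missed the threshold (adjusted p = 0.265). It was 0.24 without WT replicate 2, the lowest of them, and -0.42, the opposite sign, with Y-linked counts as a covariate. In the Pkd1 model that covariate rests on WT replicate 2 at P1. The log2 fold change of Igfbp6 was 0.49 (adjusted p = 0.317) in the Pkd2 model at P7, where the genotypes overlapped.

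**Figure D3:**
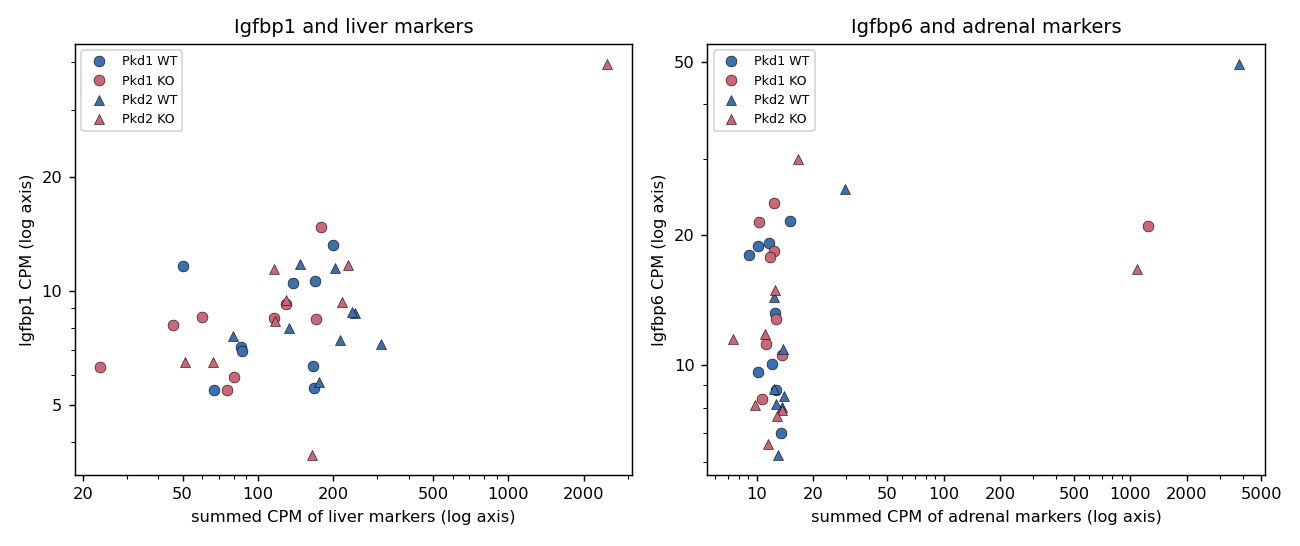
CPM of Igfbp1 against the summed CPM of 5 liver markers, and CPM of Igfbp6 against the summed CPM of 5 adrenal markers (log axes), each point a library. The library farthest right in each plot is also the highest, at 39.7 CPM of Igfbp1 and 49.7 CPM of Igfbp6.

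The next comparison asked whether the KO effect itself differed between days, with an interaction term in edgeR. In the Pkd1 model the effect on Igfbp2 and Igfbp3 was larger at P7 than at either earlier day, and in the Pkd2 model that on Igfbp3 was. Between P3 and P7, 2 of 6 members passed in the Pkd1 model, where 4.32% of all transcripts did, and 1 of 6 in the Pkd2 model, where 2.41% did. Between P1 and P7 the numbers were 2 of 6, with 7.70% of all transcripts, and 1 of 6, with 1.54%. Between P1 and P3 edgeR called 0 members in both models, with 0% of all transcripts, 0 members at an unadjusted p under 0.05 and 0 in DESeq2. At that unadjusted threshold stood 432 of 12527 transcripts in the Pkd1 model and 673 of 12633 in the Pkd2 model. The effect on Igfbp2 in the Pkd1 model rose by 2.67 on the log2 scale from P3 to P7 (SE 0.33, adjusted p = 0.000883), and that on Igfbp3 by 1.66 (SE 0.24, adjusted p = 0.00353). The effect on Igfbp3 in the Pkd2 model rose by 1.44 (SE 0.22, adjusted p = 0.00255). With Y-linked counts as a covariate, 0 members passed either comparison of P7 in the Pkd1 model, where that covariate rests on WT replicate 2 at P1. The effect on Igfbp2 in the Pkd2 model rose by 0.52 from P3 to P7, which did not pass (adjusted p = 0.696).

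The KO effect was then compared between the models at each day. edgeR's interaction test called 0 of 6 members and 0% of the 12343 transcripts tested in both models at P1, at P3 and at P7. At an unadjusted p under 0.05 there were 1, 1 and 0 members, beside 389, 1257 and 2116 of the 12343 transcripts. DESeq2 called 0 members. At P7 the effect on Igfbp2 was larger in the Pkd1 than in the Pkd2 model by 1.56 on the log2 scale (SE 0.80), which did not pass (adjusted p = 0.337), and the difference was 0.23 without Pkd2 WT replicate 3. The effect on Igfbp3 differed by 0.14 (SE 0.29, adjusted p = 0.837). These differences were thus not detectable with 3 libraries in each group.

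The course over days was followed within each genotype, in fits of 3 days and 9 mice, the days being different mice. In WT kidneys of the Pkd1 model, 3 of 6 members differed between P1 and P7, where 17.9% of all transcripts did. Igfbp3 rose from 404 to 712 CPM (log2 fold change 0.82, adjusted p = 0.0194), Igfbp4 rose from 821 to 1162 CPM (0.50, adjusted p = 0.0399) and Igfbp2 fell from 136 to 70.9 CPM (-0.94, adjusted p = 0.0305). In WT kidneys of the Pkd2 model 1 of 6 differed, against 19.2% of all transcripts, and Igfbp3 rose from 406 to 680 CPM (0.74, adjusted p = 0.0266). From P3 to P7, 1 of 6 passed in the Pkd1 model, with 7.65% of all transcripts, and Igfbp1 rose from 5.79 to 11.4 CPM (0.98, adjusted p = 0.0363). Among Pkd2 WT kidneys 0 passed, with 18.8% of all transcripts. There 1 had an unadjusted p under 0.05, beside 4291 of 12633 transcripts, and DESeq2 called 1. From P1 to P3, 0 passed in either model, with 0.120% and 0.0317% of all transcripts, and 0 in DESeq2. At an unadjusted p under 0.05 there were 2 and 0 members, beside 1471 of 12527 and 1910 of 12633 transcripts. Y-linked counts were present in 2, 3 and 0 of the 3 Pkd1 WT kidneys at P1, P3 and P7 and in 1, 1 and 2 of the Pkd2 WT kidneys, so that P3 and P7 cannot be told apart from sex in the Pkd1 colony. With those counts as a covariate 0 of these calls passed, and in the Pkd1 colony that covariate rests on P1 replicate 2. Each of these WT calls was also lost in some fit without 1 library. That of Igfbp3 in the Pkd1 model was lost without P1 replicate 1 (0.79, adjusted p = 0.061) or P1 replicate 2 (0.74, adjusted p = 0.0722), and in the Pkd2 model without P1 replicate 2 or 3 or P7 replicate 1 or 2 (0.51 to 0.77). Igfbp2 lost it without P1 replicate 1 or 2 or P7 replicate 1 or 3 (-0.71 to -0.94), and Igfbp1 without any of the P3 kidneys or P7 replicate 1 or 3 (0.87 to 1.05). Igfbp4 lost it without each of the 9 kidneys other than P7 replicate 2 (0.38 to 0.55).

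In KO kidneys the abundant members other than Igfbp4 changed between P1 and P7. Y-linked counts were present in 0, 3 and 3 of the 3 Pkd1 KO kidneys at P1, P3 and P7 and in 0, 0 and 3 of the Pkd2 KO kidneys, so that P7 cannot be told apart from sex against P1 in either model and against P3 in the Pkd2 model. From P1 to P7 Igfbp2 rose from 116 to 603 CPM in the Pkd1 model (log2 fold change 2.37, adjusted p = 7.57e-06) and from 115 to 403 CPM in the Pkd2 model (1.81, adjusted p = 1.08e-05). Igfbp3 rose from 415 to 1927 CPM (2.21, adjusted p = 7.96e-07) and from 430 to 1672 CPM (1.96, adjusted p = 2.57e-07). Igfbp5 fell from 1594 to 739 CPM (-1.11, adjusted p = 0.000593) and from 1554 to 875 CPM (-0.83, adjusted p = 0.00399). These were 3 of 6 members in each model, where 42.0% of all transcripts changed in the Pkd1 and 26.2% in the Pkd2 model. From P3 to P7, 4 of 6 passed in the Pkd1 model, with 43.0% of all transcripts, and 3 of 6 in the Pkd2 model, with 19.7%. They were Igfbp2 (2.21 and 1.43), Igfbp3 (1.97 and 2.02) and Igfbp5 (-0.64 and -0.70) in both models and Igfbp6 (0.76, adjusted p = 0.045) in the Pkd1 model, the last lost without P3 replicate 1 or 2 or without any P7 kidney (0.52 to 0.79). From P1 to P3, 0 passed in either model, with 1.19% and 2.63% of all transcripts. At an unadjusted p under 0.05 there were 2 and 1 members, beside 2380 of 12527 and 2463 of 12633 transcripts. DESeq2 called 0 and 1 members, the latter Igfbp2. The KO effect on Igfbp5 in the Pkd2 model was lower at P7 than at P3 by a difference that did not pass edgeR's interaction test (-1.12, adjusted p = 0.0802).

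The WT kidneys of the Pkd1 and Pkd2 colonies were also set side by side. edgeR called 0 of 6 members at each day, with 0.0243% of all transcripts at P1, 0.178% at P3 and 0.0243% at P7. At an unadjusted p under 0.05 there were 1, 0 and 1 members, beside 1190, 2139 and 691 of 12343 transcripts. DESeq2 called 1, 0 and 0 members. The 1 was Igfbp2 at P1, which was higher in the Pkd1 colony (136 against 94 CPM, log2 fold change 0.54) without passing edgeR's test (adjusted p = 0.189).

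The make-up of the family was described from the same counts. Summed over the members, the IGFBP transcripts amounted to 803 to 927 CPM per kilobase in Pkd1 WT and 1524 to 1772 in Pkd1 KO kidneys at P7, and to 807 to 1058 in Pkd2 WT and 1357 to 1460 in Pkd2 KO kidneys. The groups at P1 and P3 held 652 to 812 CPM per kilobase. Igfbp3 made up 33.8% ± 6.5 of the sum in Pkd1 WT and 48.2% ± 3.12 in Pkd1 KO kidneys at P7 (SD, n = 3), and 32.1% ± 11.8 and 49.5% ± 1.28 in the Pkd2 model. The share of Igfbp2 was 6.42% ± 2.67 in WT and 27.9% ± 2.48 in KO in the Pkd1 model, and 10.9% ± 10.1 and 22.1% ± 1.07 in the Pkd2 model. Shares of a sum are not independent of one another, and those of Igfbp4 were 35% ± 5.03 and 14.8% ± 4.22 in the Pkd1 model although its own level did not pass the test. That of Igfbp5 was 22.4% ± 8.98 and 7.49% ± 1.44 there. No test was made on shares.

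**Figure D4:**
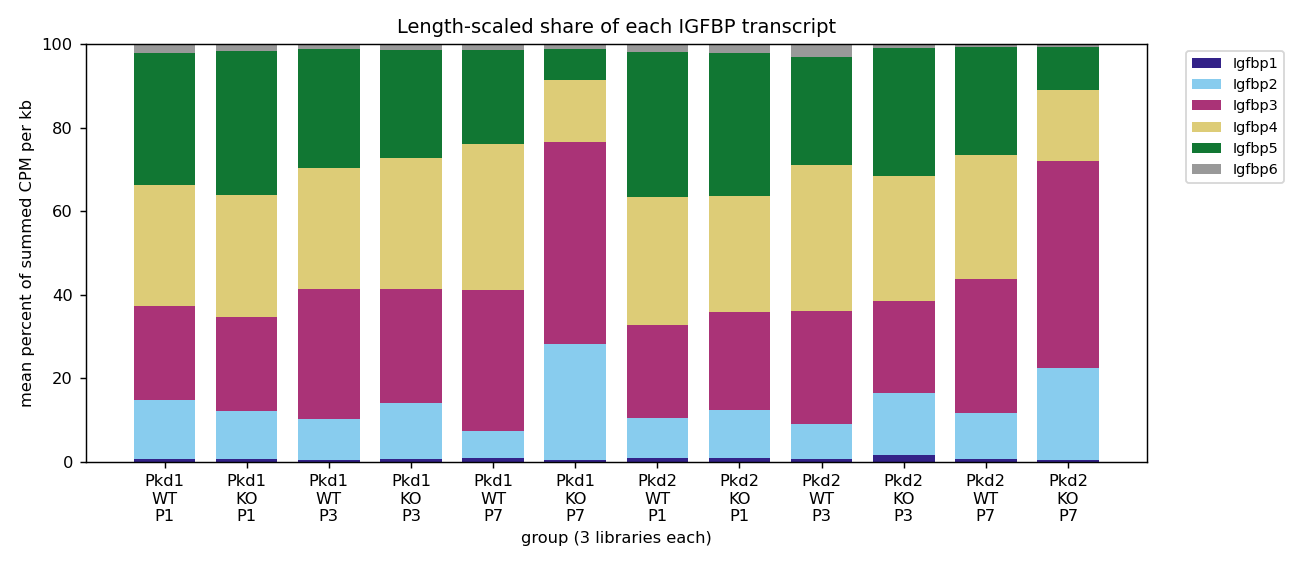
Mean percent of the summed CPM per kilobase held by each of 6 IGFBP transcripts in the 12 groups, 3 libraries each, with Igfbp7 not drawn. The P7 KO bars are the ones in which Igfbp2 and Igfbp3 take most of the sum, with 27.9% and 48.2% in the Pkd1 model and 22.1% and 49.5% in the Pkd2 model.

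Markers of several cell types moved with the IGFBP changes at P7, and since the tissue is bulk, fewer cells of a type and less RNA per cell cannot be told apart. In the Pkd1 model sex and genotype cannot be told apart at P7 either, since Y-linked counts coincide with genotype. Markers of the principal cells of the collecting duct summed to 1015 to 1189 CPM in Pkd1 WT and 518 to 666 CPM in Pkd1 KO kidneys, and to 911 to 1360 and 571 to 670 CPM in the Pkd2 model. Of the 5 tested, 3 were lower in each model and 1 was higher in the Pkd1 model. All 5 intercalated cell markers were lower in both models, and 5 and 6 of 6 proximal tubule markers, whose sum ran from 4458 to 5250 CPM in Pkd1 WT, 1431 to 2561 CPM in Pkd1 KO, 4477 to 5525 CPM in Pkd2 WT and 3049 to 3196 CPM in Pkd2 KO kidneys. Proliferation markers rose, 2 of 4 in the Pkd1 model (471 to 653 CPM in WT, 710 to 774 CPM in KO) and 4 of 4 in the Pkd2 model (354 to 533 and 662 to 750 CPM). Endothelial markers were lower for 0 of 3 and 2 of 4 tested, and of 5 stromal markers 1 was lower in the Pkd1 model, and 2 were higher and 2 lower in the Pkd2 model. Of 4 leukocyte markers, 0 passed in the Pkd1 model and 3 were higher in the Pkd2 model. Of 2 adipose markers tested, 1 was higher in KO kidneys of each model, at low levels that summed to 0 to 1.77 CPM in Pkd1 WT, 3.87 to 8.93 CPM in Pkd1 KO, 0 to 3.1 CPM in Pkd2 WT and 2.17 to 5.93 CPM in Pkd2 KO kidneys. In each model 1 of 3 markers of the thick ascending limb and distal tubule and 1 of 3 liver markers were lower, and of 4 podocyte markers 1 was lower in the Pkd1 model and 0 passed in the Pkd2 model. No adrenal, nephron progenitor, muscle or erythroid marker tested passed. The part of these shifts in the IGFBP levels was not tested.

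The other genes of the IGF pathway were taken from a list of 39, of which 34 were tested in the Pkd1 and 33 in the Pkd2 model. At P7, 10 passed in the Pkd1 model, 3 higher and 7 lower in KO, and 7 in the Pkd2 model, 4 higher and 3 lower, where 13.5% and 14.1% of all transcripts passed. Sex and genotype cannot be told apart in the Pkd1 kidneys of that day. With the replicate number as a block the Pkd1 count was 5, 2 higher and 3 lower. The median log2 fold change of the list was -0.12 and 0.09, beside 0.01 over all transcripts in each model. At P1 and P3 edgeR called 0 of the list in either model, and DESeq2 called 3 at P3 in the Pkd1 model. Of the ligands, Igf1 (4 rows) and Ins2 (3 rows) were listed at 0 in every row and library. Rows of genes with several transcripts were often at 0, so, as for Igfbp7, these values do not give their levels. Igf2, the growth factor that dominates before birth, was 1.04, 1.11 and 2.71 CPM in Pkd1 KO and 3.96, 7.94 and 4.5 CPM in WT kidneys at P7, a log2 fold change of -1.74 (SE 0.48, adjusted p = 0.0469), and it did not pass in the Pkd2 model (-0.75, adjusted p = 0.0894). Igf2 has 3 rows in the table and their sum gave -1.75 (adjusted p = 0.0425). Any reads left uncounted because its transcripts share them would be missing from that sum too, and this was not tested.

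The receptors of the growth factors themselves did not pass the test in the same kidneys. Igf1r, which carries the signal, had log2 fold changes of -0.14 (adjusted p = 0.56) and 0.18 (adjusted p = 0.0784) at P7 in the Pkd1 and Pkd2 models, and Igf2r, which clears Igf2, 0.12 (adjusted p = 0.552) and 0.12 (adjusted p = 0.389). The insulin receptor-related receptor Insrr fell in both (-0.98, adjusted p = 0.0147, and -0.95, adjusted p = 0.0099). Igfals, the partner of Igfbp3 in blood, also fell in both (-1.47, adjusted p = 0.0196, and -0.80, adjusted p = 0.0265), from 9.02, 10.1 and 7.66 CPM in Pkd1 WT to 3.59, 2.21 and 3.81 CPM in Pkd1 KO kidneys.

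The matricellular genes Ccn1, Ccn2 and Ccn4, which share a domain with the IGFBPs, rose in both models at P7. Ccn1 was 111, 107 and 103 CPM in Pkd1 WT and 425, 543 and 310 CPM in Pkd1 KO kidneys, a log2 fold change of 2.0 (SE 0.19, adjusted p = 0.00262), and 1.66 (adjusted p = 0.000353) in the Pkd2 model. Ccn2 rose by 1.77 (adjusted p = 0.00521) and 1.76 (adjusted p = 0.000598), and Ccn4 by 0.66 (adjusted p = 0.0267) and 1.32 (adjusted p = 0.000337). In the Pkd1 model alone the test also called Adam12 (-0.89, adjusted p = 0.0127), a protease that cuts Igfbp3 and Igfbp5, the Pappa inhibitor Stc1 (-1.02, adjusted p = 0.0217), the receptor-binding adaptor Grb10 (-2.18, adjusted p = 0.0249) and the transcription factor Foxo1 (-0.52, adjusted p = 0.0252). Y-linked counts coincide with genotype in these kidneys, so the calls cannot be told apart from sex. In the Pkd2 model alone it called the adaptors Irs2 (0.57, adjusted p = 0.0291) and Grb14 (-0.31, adjusted p = 0.0362). In edgeR's test of the KO effect between the models at P7, which called 0% of all transcripts, 0 of 33 of these genes passed. Of these genes 9 had an unadjusted p under 0.05, as did 2116 of all 12343 transcripts. Grb10 had the lowest adjusted p of the list, with a log2 difference (Pkd1 minus Pkd2) of -2.42 (SE 0.53, adjusted p = 0.12).

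**Figure D5:**
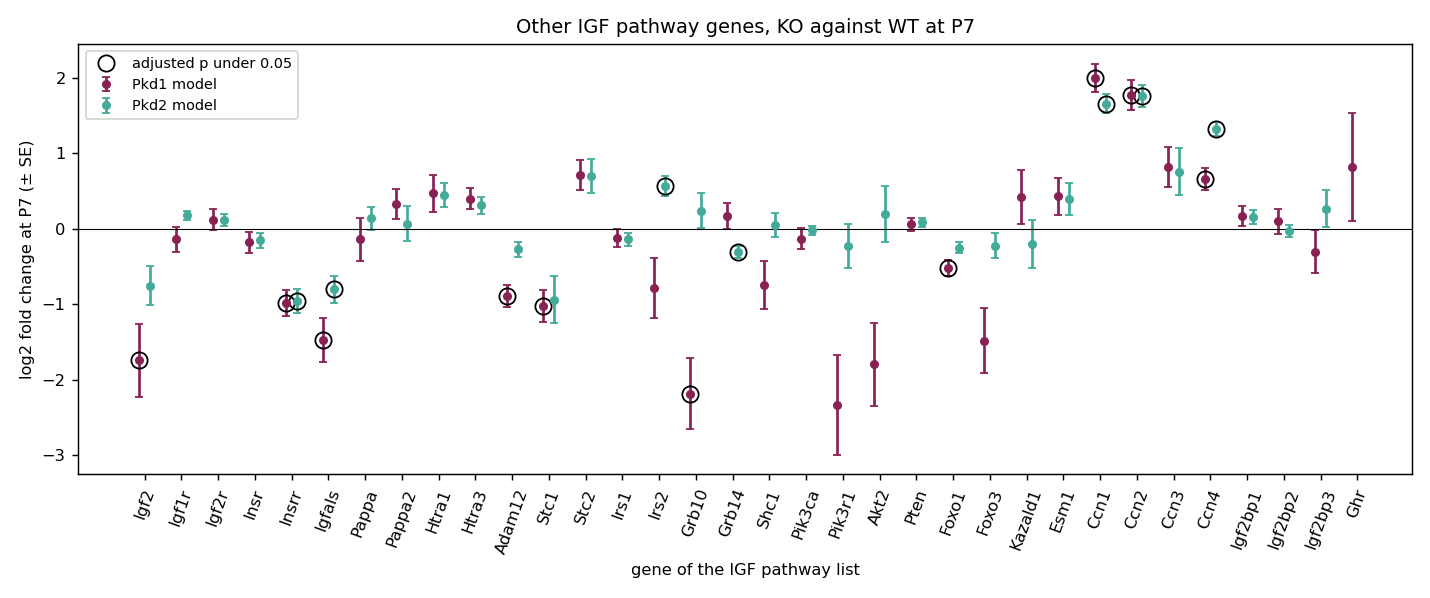
Log2 fold change of KO against WT at P7 (± SE, edgeR) for the tested genes of the IGF pathway list in each model, with a ring where the adjusted p is under 0.05. The highest points are Ccn1 (2.0 and 1.66) and Ccn2 (1.77 and 1.76), and Igf1r (-0.14 and 0.18) and Igf2r (0.12 and 0.12) lie near 0.

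The transcripts most like each member were ranked by the Pearson correlation of log2(CPM + 1) over the 36 libraries, among 8514 transcripts with a mean of at least 10 CPM. These values are descriptions, and the libraries share days and genotypes. Igfbp2 was most like Mal2 (r = 0.94), which moves proteins to the apical membrane, and the epithelial keratin Krt18 (r = 0.90), and without the P7 kidneys the values were 0.91 and 0.82 (n = 24). Igfbp3 was most like the calcification inhibitor Mgp (r = 0.95) and the chemokine Cxcl16 (r = 0.94), which became 0.54 and 0.66 without P7. Igfbp4 was most like Emx1 (r = 0.82) and the apelin receptor Aplnr (r = 0.82), which became 0.37 and 0.48 without P7. Igfbp5 was most like Adam10 (r = 0.85) and Ptgs1 (r = 0.85), with 0.65 and 0.73 without P7, and Igfbp6 like Fndc10 (r = 0.76) and Ndn (r = 0.74). Igfbp1 was most like Serpina1b (r = 0.81) and transferrin, Trf (r = 0.68), both made by the liver, and without the 2 libraries of the Pkd2 model at P3 with high adrenal or liver markers these fell to 0.61 and 0.36 (n = 34). Between the members, Igfbp2 and Igfbp3 had an r of 0.65 and Igfbp3 and Igfbp5 an r of -0.77 over the 36 libraries.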

How the data were processed

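RNA-seq was made from total RNA of whole kidneys. Per the labels and the study's methods, the authors called bases with CASAVA 1.8.2, mapped reads to mm10 with TopHat2 2.1.0 and counted them on RefSeq transcripts with HTSeq, and the deposited table holds raw read counts. The Pkd1 and Pkd2 transcripts, IGFBP transcripts and lists were read from it by RefSeq identifier, and 28978 of its 29996 rows had a symbol. The members and lists were chosen with earlier results of these data known.

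A transcript entered the tests of a model when 3 or more of that model's 18 libraries held 10 or more reads of it. Tests were run with edgeR 4.0.16 in R 4.3.3, with TMM factors over the 36 libraries, the quasi-likelihood test and Benjamini-Hochberg adjustment at 0.05 over all transcripts. KO and WT were compared within a model and day (6 libraries), day effects within a genotype (9 libraries), and the KO effect between days or models as an interaction. The standard error is the log2 fold change over the square root of F. The text names the 7 members in every comparison, the ligands and receptors and the called genes of the pathway list (up to 8 with the smallest adjusted p in each model), the 2 transcripts most like each member, the deleted genes and genes of described marker lists.

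Library totals were 7179152 to 15850818 counts (median 13143336). Chi-square per transcript between replicate pairs was 4.79 to 61.0, so replicate spread, not counting error, set the precision. It includes any difference of library preparation. Steps were tested on simulated data. Alternatives were DESeq2 1.42.0, RLE factors, TMM within a model, no low-count filter, all 18 libraries of a model together, rows of a symbol summed, the replicate number as a block, Y-linked counts as a covariate, and leaving out each library. Rows of genes with several transcripts, Igfbp7 and Igf1 among them, were often at 0, and how the counting treated reads shared by transcripts was not tested.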

Additional observations from a re-analysis of the deposited data

Results flagged for a closer look

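The KO effect on 2 members differed between days by edgeR's interaction test. In the Pkd1 model the effect on Igfbp2 was higher at P7 than at P3 by 2.67 on the log2 scale (SE 0.33, adjusted p = 0.000883) and than at P1 by 3.32 (SE 0.33, adjusted p = 5.47e-05). The effect on Igfbp3 there was higher at P7 than at P3 by 1.66 (SE 0.24, adjusted p = 0.00353) and than at P1 by 1.40 (SE 0.24, adjusted p = 0.004). In the Pkd2 model the effect on Igfbp3 was higher at P7 than at P3 by 1.44 (SE 0.22, adjusted p = 0.00255) and than at P1 by 1.21 (SE 0.22, adjusted p = 0.00913). All 3 KO kidneys were above all 3 WT kidneys at P7 in each of these cases, and in the Pkd1 model Y-linked counts coincided with genotype at that day, so that sex and genotype cannot be told apart within it.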

How the results depend on the processing

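Of the log2 differences recomputed with all libraries, 463 kept their direction and side of the threshold, 11 lost and 5 gained the call, and 6 changed sign. With Y-linked counts as a covariate the number of members called was 1 in the Pkd1 and 2 in the Pkd2 model for KO against WT at P7, 0 for the change of the Pkd1 effect from P3 or P1 to P7, and 0 in WT kidneys for P7 against P3 and P1 in the Pkd1 model and P7 against P1 in the Pkd2 model. In the Pkd1 model that covariate rests on WT replicate 2 at P1. The signs changed by that covariate were those of Igfbp1 (0.09) and Igfbp6 (0.41) in the Pkd1 model at P1, Igfbp6 (-0.42) in the Pkd1 model at P7, Igfbp1 (-0.11) and Igfbp6 (-0.04) in the Pkd2 model at P1, and Igfbp1 (0.08) in the Pkd2 model at P7. All 18 libraries in 1 fit gave 2 members in the Pkd2 model at P7, where Igfbp2 then passed (1.53, adjusted p = 0.0493). DESeq2 gave 1 member in the Pkd2 model at P3, 2 for the change of its effect from P3 to P7, 2 in Pkd1 WT and 1 in Pkd2 WT kidneys for P7 against P3, 1 in Pkd2 KO kidneys for P3 against P1, 1 for the WT colonies at P1, and 3 of the pathway list in the Pkd1 model at P3. The cause of these changes was not tested.

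The replicate numbers of the labels did not pair the libraries outside the Pkd1 model at P1, where same-numbered libraries correlated by 0.423, 0.301 and 0.623. With the number as a block the pathway list gave 5 calls in the Pkd1 model at P7 in place of 10, Igfbp2 was 3.14 (adjusted p = 0.000967) and Igfbp3 1.46 (adjusted p = 0.0257) there, and Igfbp2 in the Pkd2 model at P7 was 2.09 (adjusted p = 0.0542).

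Leaving out 1 library moved the members called for KO against WT at P7 between 1 and 3 in the Pkd1 and between 1 and 2 in the Pkd2 model, where Igfbp2 ran from 1.06 to 2.86. For the change of the KO effect it gave 2 to 3 in the Pkd1 model (P1 to P7) and 1 to 2 in the Pkd2 model (to P7 from P3 and from P1). In WT kidneys it gave 0 to 2 and 0 to 3 in the Pkd1 model for P7 against P3 and P1, 0 to 1 and 0 to 2 in the Pkd2 model, and 0 to 1 between the colonies at P1. Signs changed within these ranges in the Pkd1 model at P1 for Igfbp1 (-0.34 to 0.07), Igfbp3 (-0.04 to 0.15) and Igfbp4 (-0.02 to 0.11), at P3 for Igfbp5 (-0.28 to 0.07) and at P7 for Igfbp1 (-0.62 to 0.02). In the Pkd2 model they did at P1 for Igfbp1 (-0.19 to 0.25), Igfbp5 (-0.11 to 0.08) and Igfbp6 (-0.44 to 0.76), at P3 for Igfbp1 (-0.15 to 1.76) and Igfbp3 (-0.23 to 0.01), and at P7 for Igfbp1 (-0.31 to 0.11). The difference of the effect on Igfbp3 between models ran from -0.12 to 0.06, -0.23 to 0.10 and -0.09 to 0.36 at P1, P3 and P7.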

Other observations

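WT replicate 3 of the Pkd2 model at P7 stood apart from the other WT kidneys of its group in several measures. It held 308 CPM of Igfbp2 against 77.6 and 33.7 CPM, 2171 CPM of Igfbp5 against 1225 and 903 CPM, and 503 CPM of Igfbp3 against 657 and 881 CPM. Its principal cell markers of the collecting duct summed to 1360 CPM against 1128 and 911 CPM, its proximal tubule markers to 4477 CPM against 5525 and 5416 CPM, and its proliferation markers to 354 CPM against 511 and 533 CPM. It held 0.398 CPM of Y-linked transcripts, whereas the others held 311 and 338 CPM. Without it the KO effect on Igfbp3 at P7 in that model was 1.12 on the log2 scale (adjusted p = 0.00107 in edgeR's test). The part of sex, tissue composition or sampling in these values was not tested.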
